A study of Mus musculus with 4 samples.

Results

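The expression of 9 genes of antigen presentation by the major histocompatibility complex (MHC) was followed through 4 RNA sequencing libraries of microglia, the resident macrophages of the brain, taken from the mouse cerebral cortex at embryonic day 16. The members were chosen by symbol: B2m, H2-K1, H2-D1, Tap1 and Tapbp of the class I route, and Cd74, H2-Aa, H2-Ab1 and H2-Eb1 of the class II route. All 9 had a row with counts in every library, among 21981 genes in the deposited tables, and all 9 passed the low-count filter that left 15951 genes for testing. The controls (control 1 and control 6) were labelled Bach1 fl/fl, that is, homozygous for a floxed allele of Bach1, which encodes a heme-binding transcriptional repressor. The other libraries (cKO 2 and cKO 5) were labelled Bach1 cKO, a conditional knockout for which the series text names a driver Cx3. All 4 were labelled untreated. The sources used here do not give the mouse strain (on which the MHC haplotype depends), the number of embryos behind a library, the way the cells were isolated, or whether the controls carried the driver. The counts and read ratios of the polymorphic genes H2-K1, H2-D1, H2-Aa, H2-Ab1 and H2-Eb1 come from mapping to a reference haplotype, and whether reads of another haplotype were lost in any library was not tested. With 2 libraries per genotype and no statement that they came from separate animals, the p-values below measure only the spread between these samples.

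Bach1 itself gave 800 (control 1), 372 (control 6), 519 (cKO 2) and 683 reads (cKO 5), or 45.8, 21.6, 29.98 and 35.4 CPM. Both cKO libraries lay between the controls (log2 fold change −0.07 ± 0.47 SE, edgeR adjusted p = 0.9997). Counts over the whole gene do not separate the floxed exons from the rest, so the genotype labels were not borne out by the targeted gene, and control and cKO below mean libraries so labelled. Library totals ran from 17233115 to 19305078 reads.

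Class I molecules display peptides from the cytosol to CD8 T cells. A heavy chain, such as those from H2-K1 and H2-D1, pairs with beta-2-microglobulin from B2m, and the peptides reach it through the TAP transporter (Tap1 with Tap2) with the help of tapasin (Tapbp). Class II molecules display peptides from endosomes to CD4 T cells as a pair of an alpha chain and a beta chain. H2-Aa and H2-Ab1 encode the pair of the A molecule, and H2-Eb1 encodes the beta chain of the E molecule. The pair is guarded on its way by the invariant chain Cd74. Microglia hold little class II in the resting brain and raise both routes after interferon gamma.

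The promoters are shown first, since regulators described further on are known to act through motifs of this kind. Binding to the stretches printed here was not tested. In many MHC promoters an X2 box, bound by CREB family factors, lies upstream of a Y box bound by NF-Y, and the coactivators NLRC5 (class I) and CIITA (class II) assemble there. RefSeq promoter entries (GRCm38.p6, 250 bases before to 50 after a start) were matched by symbol for 7 of the 9 members; H2-Ab1 and Cd74 were not matched. The windows below run 5′ to 3′ in the direction of the gene. The H2-D1 window lies before its RefSeq start but inside the deposited span of that gene (35262730 to 35267499). That RefSeq start is therefore downstream of the start of the span. The other windows lie outside the deposited spans of their genes. Capitals mark TGANG and the downstream ATTGG, and in H2-K1 and H2-D1 also GGGATNCCC, a form of the NF-kB consensus, and TTTCNNTTC, a piece of the interferon response element.
B2m (chr2:122147601-122147646, plus strand): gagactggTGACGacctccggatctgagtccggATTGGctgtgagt
H2-K1 (chr17:34000351-34000465, minus strand): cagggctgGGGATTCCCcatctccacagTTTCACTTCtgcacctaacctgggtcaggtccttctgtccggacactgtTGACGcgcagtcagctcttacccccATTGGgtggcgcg
H2-D1 (chr17:35262916-35263030, plus strand): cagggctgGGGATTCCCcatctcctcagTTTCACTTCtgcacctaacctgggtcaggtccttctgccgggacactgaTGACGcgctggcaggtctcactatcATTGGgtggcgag
H2-Aa (chr17:34287859-34287905, minus strand): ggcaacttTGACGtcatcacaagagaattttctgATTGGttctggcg
H2-Eb1 (chr17:34305776-34305820, plus strand): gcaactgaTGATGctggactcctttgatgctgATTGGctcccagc
The arrangement of TGANG followed after 18 to 23 bases by ATTGG, searched on both strands, was found in these 5 of the 7 members and in 1.68% of the 32851 promoter entries of the same length. The gap was 20 bases in B2m, H2-K1 and H2-D1, 21 in H2-Aa and 19 in H2-Eb1. Tap1 and Tapbp did not hold it. GGGATNCCC stood in 1.03% of all entries and TTTCNNTTC in 7.52%, and among the members both were found in H2-K1 and H2-D1. Single ATTGG (37.4% of entries) and TGANG (89.4%) are common letters. The motifs were chosen with these promoters in view, and a match is a description of sequence.

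The MHC members were led by class I. Wherever 4 values stand in a row without library names, they follow the order control 1, control 6, cKO 2, cKO 5. In CPM (reads scaled to the library total), the 5 class I members summed to 1518, 2112, 736 and 2284. The 4 class II members summed to 26.3, 29.8, 10.5 and 28.7 CPM. Levels of different genes were compared per kilobase of transcript. With the longest coding transcript as length, the mean over the 4 libraries was 1201 CPM per kb for B2m, 127 for Tapbp, 61.3 for H2-D1, 57.6 for H2-K1 and 13.6 for Tap1. The class II genes came below all of these, at 8.85 CPM per kb for H2-Ab1, 6.63 for Cd74, 2.02 for H2-Aa and 0.887 for H2-Eb1. With the union of all annotated exons as length, which counts retained introns, Cd74 (5.56) stood above H2-Ab1 (4.17), and H2-Eb1 (0.762) above H2-Aa (0.599). The order within those pairs therefore depends on the length used.

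**Figure D1:**
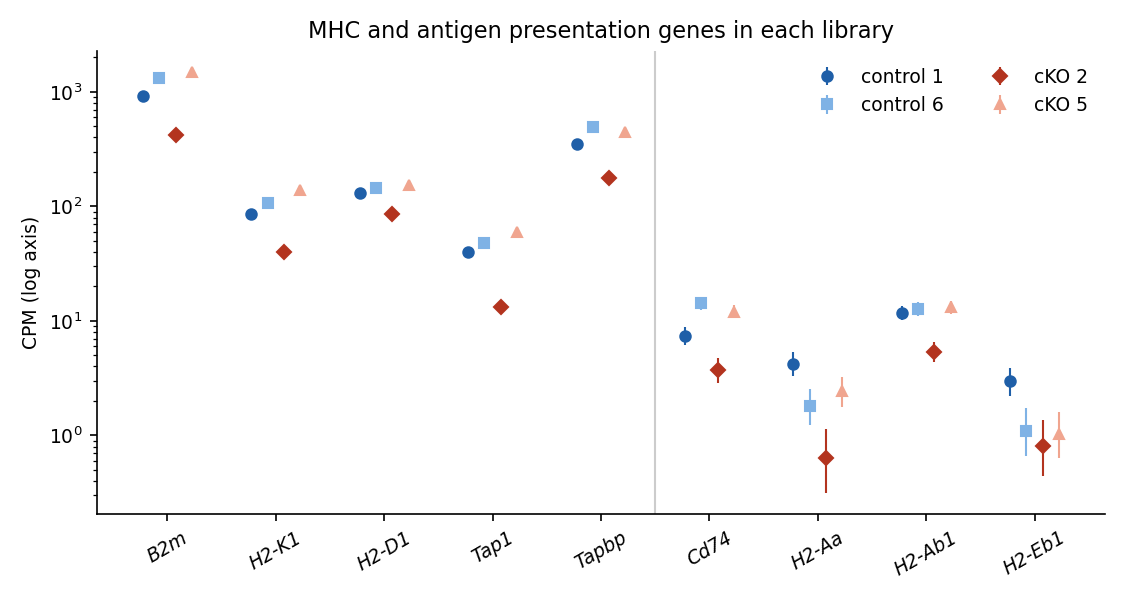
CPM (log axis) of the 9 MHC genes in each library, with class I members left and class II members right of the grey line; points are single libraries and bars are 95% exact binomial intervals, which cover counting error only. For all 9 genes the lowest point is cKO 2, and the class II genes lie between 0.635 and 14.2 CPM.

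B2m (ENSMUSG00000060802, chromosome 2, 122147686 to 122153083, plus strand in GRCm38 coordinates), the light chain that every classical class I molecule needs, stood at 914 (control 1), 1319 (control 6), 419 (cKO 2) and 1481 CPM (cKO 5). The lowest and the highest library were thus both cKO, with the controls between them. Control libraries averaged 1117 ± 287 and cKO libraries 949.9 ± 751 CPM (SD, n = 2 per genotype), and the log2 fold change was −0.23 ± 0.85 (SE). Of B2m, 0% of the 50-base words of the longest coding transcript occur in transcripts of another gene.

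The heavy chain gene H2-K1 (ENSMUSG00000061232, chromosome 17, 33996017 to 34000333, minus strand) stood at 85.7 (control 1), 108 (control 6), 39.7 (cKO 2) and 139.5 CPM (cKO 5). This is the order of B2m: cKO 2 lowest, cKO 5 highest. H2-D1 (ENSMUSG00000073411, chromosome 17, 35262730 to 35267499, plus strand), the other classical heavy chain gene, stood at 130.1 (control 1), 145.8 (control 6), 86.5 (cKO 2) and 153 CPM (cKO 5). Its order was the same but its spread was narrower, with cKO 5 at 1.77 times cKO 2, against 3.52 times for H2-K1 and 3.54 times for B2m. The log2 fold change was −0.11 ± 0.77 for H2-K1 and −0.24 ± 0.49 for H2-D1 (SE). These counts are partly uncertain, because 8.79% of the 50-base words of H2-K1 and 14.3% of those of H2-D1 also occur in other genes. H2-D1 shares most with H2-Q1 (7.4%), and H2-K1 with H2-D1 (6.94%).

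Tap1 (ENSMUSG00000037321, chromosome 17, 34187553 to 34197225, plus strand), a subunit of the peptide transporter, stood at 40.1 (control 1), 47.9 (control 6), 13.3 (cKO 2) and 59.7 CPM (cKO 5). The cKO libraries again enclosed the controls, and cKO 5 was 4.50 times cKO 2, the widest gap within a genotype among the 9 genes. Tapbp (ENSMUSG00000024308, chromosome 17, 33915899 to 33929288, plus strand), the tapasin gene, stood at 348 (control 1), 491 (control 6), 178 (cKO 2) and 450.5 CPM (cKO 5). Its highest library was control 6. The log2 fold change was −0.25 ± 0.86 for Tap1 and −0.44 ± 0.68 for Tapbp (SE). Of the 50-base words of Tap1, searched on both strands, 6.47% also occur in transcripts of other genes, mostly Psmb9 (5.61%). Psmb9 (34181988 to 34187764, minus strand) overlaps the start of Tap1 on the opposite strand. Words from that overlap are the same genomic bases and not a repeat elsewhere. For Tapbp the share was 21%, mostly with the predicted gene Gm19412 (19%).

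On the class II side, Cd74 (ENSMUSG00000024610, chromosome 18, 60803848 to 60812646, plus strand), the invariant chain gene, stood at 7.38, 14.2, 3.70 and 12.1 CPM, from 129, 245, 64 and 233 reads. Control 6 and cKO 5 were high and control 1 and cKO 2 low, so the genotypes overlapped. H2-Ab1 (ENSMUSG00000073421, chromosome 17, 34263209 to 34269418, plus strand), the beta chain gene of the A molecule, stood at 11.7, 12.7, 5.37 and 13.1 CPM, from 204, 219, 93 and 253 reads. Control 1, control 6 and cKO 5 lay within each other's 95% exact binomial intervals (10.1 to 13.4, 11.1 to 14.5 and 11.5 to 14.8 CPM), and cKO 2 lay below them (4.34 to 6.58 CPM). These intervals cover counting error only.

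The remaining class II chains were at few reads and had another order. H2-Aa (ENSMUSG00000036594, chromosome 17, 34282744 to 34287827, minus strand), the alpha chain gene, stood at 4.24, 1.80, 0.635 and 2.43 CPM, from 74, 31, 11 and 47 reads. Control 1 was the highest library, and its interval (3.33 to 5.32 CPM) did not meet that of control 6 (1.22 to 2.55 CPM). H2-Eb1 (ENSMUSG00000060586, chromosome 17, 34305877 to 34316199, plus strand), the beta chain gene of the E molecule, stood at 2.98, 1.10, 0.809 and 1.04 CPM, from 52, 19, 14 and 20 reads. Again control 1 stood apart, and the intervals of the other libraries overlapped (0.664 to 1.72, 0.442 to 1.36 and 0.633 to 1.60 CPM). The log2 fold change was −0.47 ± 0.89 for Cd74, −0.92 ± 1.08 for H2-Aa, −0.41 ± 0.70 for H2-Ab1 and −1.15 ± 0.94 for H2-Eb1 (SE). A floor of 3 reads corresponds to between 0.155 and 0.174 CPM in these libraries, so all 4 genes were above it in every library.

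In the contrast of cKO against control, which by the labels asks how microglial transcripts differ without Bach1 (whose own counts overlapped between the genotypes), 0 of the 9 MHC genes were called by edgeR's quasi-likelihood test at an adjusted p below 0.05, and so were 0% of the 15951 genes (adjusted p = 0.9997 for each member). At an unadjusted p under 0.05, 0 of the 9 passed, against 0.307% of all genes in edgeR, 0.598% in DESeq2 and 0.232% in limma-voom; no gene passed after adjustment in DESeq2 or limma-voom either. The smallest unadjusted p among the members in the fit to all 4 libraries was 0.284 (edgeR), for H2-Eb1. All 9 log2 fold changes were negative with a median of −0.41, beside a median of 0.03 and 7526 negative values among the 15951 genes tested. Leaving out cKO 2 made 7 of the 9 positive, with a median of 0.24 beside −0.03 for all genes, so the negative sign of those 7 rests on that library. H2-Aa (−0.17) and H2-Eb1 (−0.83) stayed negative without cKO 2. Without control 6, B2m, H2-K1 and Cd74 were positive too (0.16, 0.17 and 0.19). All 9 stayed negative without control 1 and without cKO 5. Without cKO 5 all 9 were further from zero than in the fit to all 4 libraries, from −0.93 for H2-D1 to −2.45 for H2-Aa. The size of the contrast thus rests on cKO 5 as well.

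**Figure D2:**
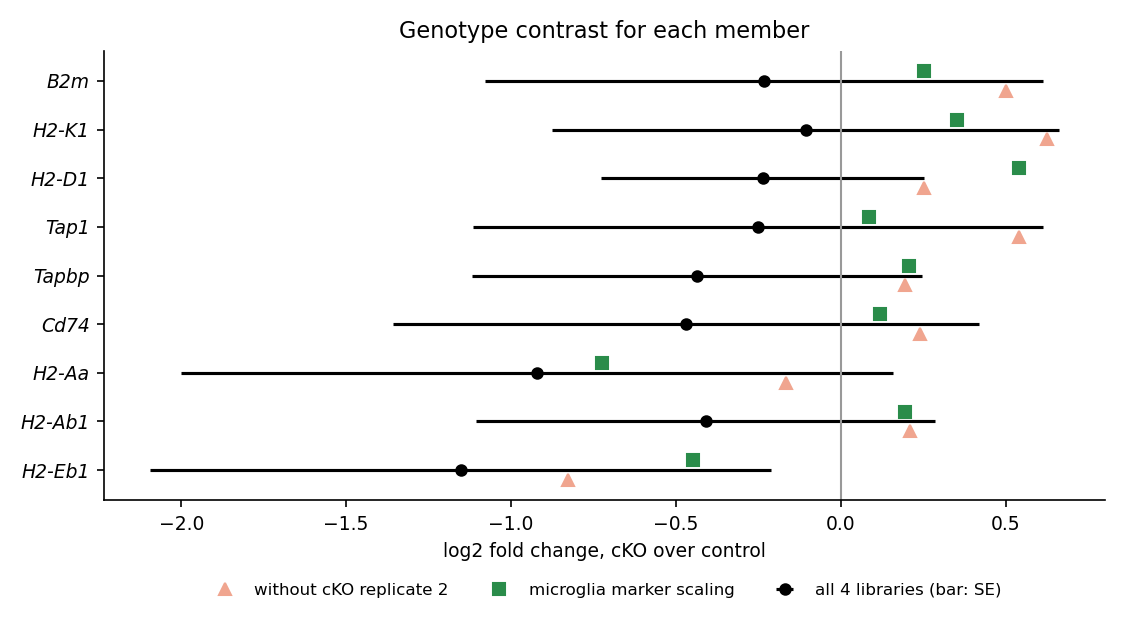
Log2 fold change of cKO over control for the 9 MHC genes: black points use all 4 libraries with the standard error as bar, triangles leave out cKO 2, and squares scale the libraries on microglial markers. All 9 black points are negative, and 7 of 9 turn positive in both alternatives; H2-Aa and H2-Eb1 stay negative.

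H2-Eb1 was the member whose genotypes did not overlap, with both cKO libraries below both controls on CPM divided by the TMM factors. That is 1 of 9 members on the lower side, against 7.64% of all genes tested, and 0 of 9 on the higher side, against 8.33%. On CPM without those factors the members gave the same counts, against 6.57% lower and 9.31% higher. The gap rests on 19 reads in control 6 and 20 reads in the deeper library cKO 5, whose intervals overlapped almost wholly. On the TMM scale, all 9 members had their lowest value in cKO 2, as had 33.2% of all genes tested. The highest value was in cKO 5 for 5 members (B2m, H2-K1, H2-D1, Tap1 and H2-Ab1), in control 6 for Tapbp and Cd74, and in control 1 for H2-Aa and H2-Eb1; of all genes tested, 25.8%, 21.4% and 17% had theirs in those libraries.

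The authors' deposited tables compare 1 cKO library with 1 control library at a time, and their calls (p below 0.05 and at least 1 log2 unit of change) compare libraries and not genotypes. Between cKO 2 and control 1, the authors' deposited table called 6 of the 9 members lower, where 11.6% of its genes were called lower, and between cKO 2 and control 6 it called 7, where 13.4% were. Between cKO 5 and control 1, the authors' deposited table called H2-Eb1 alone lower (26% of its genes), and between cKO 5 and control 6 it called 0 lower (11.4%). In the same order of comparisons, the authors' deposited tables called 0 members higher, where 20%, 33.7%, 8.79% and 9.23% of genes were. The comparisons share libraries and are not separate support for a direction.

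Markers of the labelled cell type moved with the members. The 16 microglial markers summed to 27550, 43550, 9993 and 38650 CPM; none was at 0 in any library, and the most abundant were Csf1r (5365, 7212, 1936 and 6621 CPM) and C1qa. All 16 were negative in the contrast (median −0.48, 0 called). On the TMM scale 1 of the 16 was lower in cKO without overlap, against 7.64% of all genes tested. This was Cx3cr1, the fractalkine receptor gene, at 4333, 5158, 747 and 2756 CPM. The 12 markers of excitatory neurons summed to 1063, 330.1, 3584 and 286 CPM. The 12 endothelial markers summed to 3467, 644, 2673 and 359 CPM. In bulk RNA, fewer microglia in a library and less transcript per microglial cell cannot be told apart. Each member was therefore also expressed as the log2 ratio of its CPM to the geometric mean CPM of the microglial markers (708, 1188, 287 and 1053 CPM).

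On that scale B2m lay at 0.37, 0.15, 0.54 and 0.49. Its range over the libraries was 0.39 log2 units, where that of its log2 CPM was 1.82. Both cKO values were above both control values. H2-K1 had ratios of −3.05, −3.46, −2.86 and −2.92, and its range was 0.61 against 1.81 in log2 CPM. B2m and H2-K1 were the 2 of 9 members with no overlap between genotypes when libraries were scaled on the markers, both higher in cKO, where 10.3% of all genes tested were higher and 1.18% lower without overlap. With Cx3cr1 left out of the markers the same 2 members were higher and 0 lower, against 8.28% and 1.39% of all genes, and with C1qc left out as well, against 11.1% and 1.3%. Neither passed a test on this scale (log2 fold change 0.25 for B2m and 0.35 for H2-K1, with 0 genes past the threshold in edgeR), and the median of all genes was 1.13 there. Their position relative to all genes was therefore below the middle.

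For Tap1 the ratios were −4.14, −4.63, −4.44 and −4.14, and the range was 0.49 against 2.17 in log2 CPM. Cd74 had the narrowest range of the 9 on this scale, 0.30 against 1.94 in log2 CPM, with ratios of −6.58, −6.39, −6.28 and −6.45 in control 1, control 6, cKO 2 and cKO 5. Tapbp ranged over 0.58 and H2-Ab1 over 0.81. H2-D1 did the opposite: its ratio was −2.44, −3.03, −1.73 and −2.78, and its range was 1.30 against 0.82 in log2 CPM. H2-Eb1, like H2-D1, had a wider range on this scale (2.18 against 1.88 in log2 CPM), while that of H2-Aa was narrower (1.98 against 2.74). H2-Aa and H2-Eb1 kept control 1 as their highest library, at −7.39 and −7.89. With Csf1r, the receptor gene of microglial survival, as the reference in place of the list, the ranges were 0.39 for B2m, 0.52 for Cd74 and 1.15 for H2-D1.

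**Figure D3:**
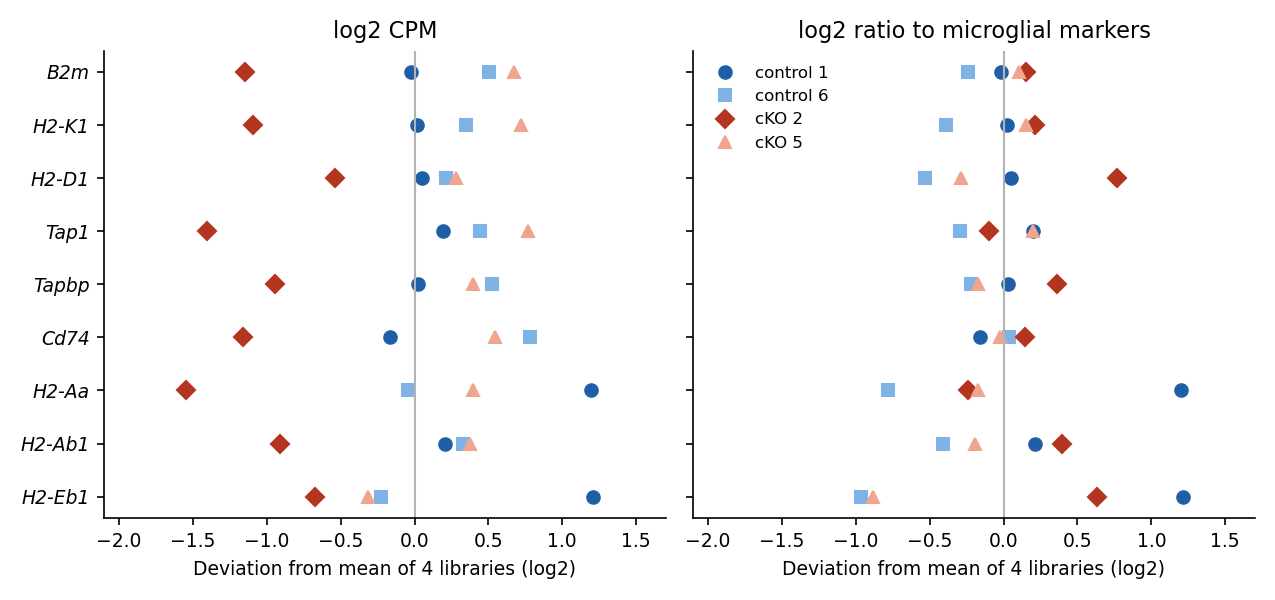
Deviation of each MHC gene from its mean over the 4 libraries, in log2 units, for CPM (left) and for the ratio to the geometric mean of 16 microglial markers (right); each point is 1 library. In the right panel B2m, H2-K1, Tap1 and Cd74 draw together, with ranges of 0.39, 0.61, 0.49 and 0.30, while H2-D1 is high in cKO 2 and H2-Aa and H2-Eb1 are high in control 1.

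Ratios of read counts between members of the same library do not depend on depth or scaling. H2-K1 had 0.0938, 0.0818, 0.0948 and 0.0942 reads per B2m read. The ratio of H2-D1 to H2-K1 was 1.52, 1.35, 2.18 and 1.10, and the 95% exact intervals of cKO 2 (1.99 to 2.39) and cKO 5 (1.04 to 1.16) lay on either side of the controls. The same genotype thus held both extremes. The libraries high in this ratio, cKO 2 and then control 1, were those high in endothelial and neuronal markers, whose part in it was not tested. H2-Ab1 had 1.58, 0.894, 1.45 and 1.09 reads per Cd74 read in control 1, control 6, cKO 2 and cKO 5.

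The ratio of H2-Aa to H2-Ab1 was 0.363 in control 1 (0.274 to 0.475) and 0.142, 0.118 and 0.186 in control 6, cKO 2 and cKO 5. Control 1 lay above the intervals of the others, of which the highest bound was 0.254. H2-Eb1 per H2-Ab1 was 0.255, 0.0868, 0.151 and 0.0790. The interval of cKO 2, which rests on 14 reads of H2-Eb1, reached from 0.0792 to 0.266 and met that of control 1. The 10 markers of dendritic cells, which carry much class II, summed to 835, 1329, 254 and 1101 CPM. Most of that sum was Siglech, which microglia also express, followed by Itgax (19.6, 19.7, 3.64 and 19.9 CPM). On the TMM scale 2 of the 8 tested markers were highest in control 1 (Clec9a and Zbtb46), 2 in control 6 (Batf3 and Siglech) and 4 in cKO 5 (Flt3, Itgax, Xcr1 and Clec10a). The low ones differed in order: Clec9a had 36, 0, 20 and 1 reads, Xcr1 2, 11, 5 and 32 reads, and Clec10a 9, 10, 4 and 70 reads. No row was found for Ccr7 or Cd209a. Of the 12 lymphocyte markers, 6 had a row, and Cd79b, at 61.8, 109, 24.8 and 118 CPM, made up nearly all of their sum. Cd79a, also a B cell gene of that list, had 0, 3, 7 and 2 reads. Whether the Cd79b reads came from lymphocytes was not tested. No row was found for the B cell gene Pax5 or the T cell gene Cd3e. The part of these cells in the H2-Aa and H2-Eb1 values was not tested.

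**Figure D4:**
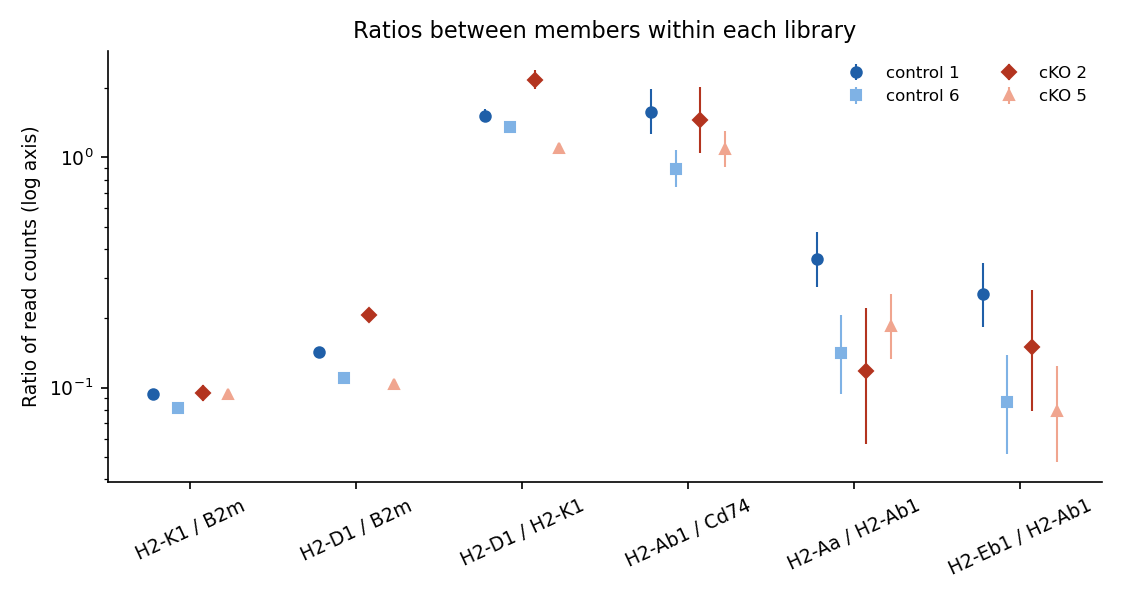
Ratios of read counts between pairs of MHC genes in each library (log axis), with 95% exact binomial intervals that cover counting error only. H2-K1 per B2m lies between 0.0818 and 0.0948, H2-D1 per H2-K1 is highest in cKO 2 at 2.18, and H2-Aa per H2-Ab1 is highest in control 1 at 0.363.

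The genes with the pattern closest to a member were sought among 7309 genes with a mean of at least 20 CPM, by the root mean square distance of log2(TMM-scaled CPM + 0.5), centred on each gene's mean, over the 4 libraries. Closest to B2m was Apoe, the apolipoprotein E gene, at a distance of 0.02 log2 units, with 5729, 8419, 2681 and 9547 CPM. Nfatc2, Asb10, Siglecf and Itga9 followed, each at 0.03. Closest to H2-K1 were the kinase gene Ptk2b (0.01), Snx5 (0.02), Fkbp5 (0.03), Tlr2 (0.03) and Tmem141 (0.04). Closest to Cd74 were Was (0.03), which encodes an actin regulator of blood cells, the Fc receptor gene Fcgr3 (0.04), Rab3il1 (0.05), Lair1 (0.05) and Rnf128 (0.06). Over 4 libraries such likeness is a description, with no test.

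Other genes of the class I route were read from lists. Of 17 further heavy chain and class I related genes, 14 had a row and 9 were tested; 0 were called, 3 were positive and 6 negative, the median log2 fold change was −0.11, and 8 of the 9 were lowest in cKO 2. Fcgrt, the neonatal Fc receptor gene, had 792, 972, 364 and 947 CPM. Hfe, a regulator of iron uptake with a class I fold, had 234, 329, 117 and 405 CPM. The vitamin B metabolite presenting gene Mr1 had 43.8, 43.7, 18.3 and 62.1 CPM, and the nonclassical gene H2-T23 40.8, 32.6, 26.5 and 49.3 CPM. The genes H2-T10, H2-Q4 and H2-Q7 had at most 10 reads in any library with a count.

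Peptide supply and loading genes numbered 17, all tested, with 0 called, 4 positive and 13 negative (median −0.18), and 14 of the 17 lowest in cKO 2. The chaperone genes of the loading complex were abundant: Pdia3 had 2036, 2272, 1325 and 2604 CPM, Canx 1167, 1238, 824 and 1163 CPM, and Calr 684, 763, 444 and 829 CPM. Tap2, the partner of Tap1, had 48.6, 42.4, 19.5 and 44.9 CPM. The aminopeptidase gene Erap1 had 81.4, 101, 39.2 and 102 CPM. Among inducible proteasome subunits, Psmb9 had 16.7, 30.8, 7.05 and 34.7 CPM and Psmb10 36.3, 48.9, 24.8 and 53.3 CPM. Sec61b, a subunit of the translocon, was the 1 gene of this list with both cKO libraries above both controls (9.44, 10.4, 17.5 and 12.5 CPM), against 8.33% of all genes. It was picked out with its values in view.

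Of 14 symbols for class II loading and processing, 10 had a row, all were tested, and 0 were called. All 10 were negative (median −0.35), and 9 of 10 were lowest in cKO 2; 8 of 10 were positive without cKO 2 (median 0.36). The peptide exchange genes H2-DMa and H2-DMb1 were above Cd74 in CPM: H2-DMa had 42.2, 68.5, 22.2 and 85.6 CPM, and H2-DMb1 had 41.6, 50.7, 16.4 and 70.6 CPM. The inhibitor chain genes H2-Oa and H2-Ob had 6.30, 9.63, 2.43 and 6.94 CPM and 10.6, 19.6, 4.51 and 18.3 CPM. The lysosomal protease genes that cut antigen and invariant chain were among the most abundant named here, with Lgmn at 4730, 7839, 2227 and 7145 CPM, Ctsl at 2709, 3475, 972 and 3697 CPM and Ctss at 1113, 2023, 517.5 and 1864 CPM. No row was found for H2-Ea, the alpha chain gene of the E molecule, or for H2-Eb2. Whether a missing row reflects low expression, the gene annotation or the reference haplotype was not tested.

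The coactivators were at few reads. Ciita, the class II coactivator gene, had 4 reads in control 1, 1 read in control 6 and 9 reads in cKO 2, and no row for cKO 5, so it was not tested. Nlrc5, the class I coactivator gene, had 2.86, 2.73, 0.578 and 1.40 CPM, from 50, 47, 10 and 27 reads. Both cKO values were below both controls, with a log2 fold change of −1.50 ± 0.93 (SE; unadjusted p = 0.175, edgeR). Of the 20 tested of 21 regulators, 0 were called, 6 were positive and 14 negative (median −0.27). On the lower side without overlap were Nlrc5, Rfxank, Ifnar1 and Socs1, that is 4 of 20 against 7.64% of all genes, and on the higher side Nfyc, 1 of 20 against 8.33%. Rfxank, Socs1 and Nfyc were singled out after their values were seen. On CPM without the TMM factors, Rfxank (21.5, 20.3, 22.4 and 12.9), Ifnar1 (140, 115, 126 and 107) and Socs1 (5.55, 4.18, 4.45 and 3.11) overlapped, and Nlrc5 and Nfyc did not. With the 3 microglial marker scalings Nlrc5 was again lower without overlap, against 1.18%, 1.39% and 1.3% of all genes. Nfyc, Rfxank, Ifnar1 and Socs1 overlapped there. Rfx5, noted after its values were seen, was higher on these scales, against 10.3%, 8.28% and 11.1%.

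Among the genes of factors known to bind X2 and Y boxes, those of the NF-Y subunits did not share an order. Whether these factors bind the printed stretches was not tested. Nfyb (34.1, 23.8, 47.4 and 29.0 CPM) and Nfyc (24, 21.0, 34.0 and 26.2 CPM) were highest in cKO 2, and Nfya (9.10, 20.95, 12.5 and 12.4 CPM) was highest in control 6. Creb1 had 84.7, 48.2, 82.9 and 41.0 CPM. The interferon factors and receptors differed in order too. Irf8 had 444, 647, 161 and 608 CPM, Irf1 31.9, 46.2, 15.9 and 34.1 CPM, and Ifngr1, an interferon gamma receptor subunit gene, 1179, 1850, 539 and 1707 CPM. On the TMM scale these 3 were lowest in cKO 2 and highest in control 6. Irf2, Ifngr2 and Ifnar2 were lowest in cKO 2 but highest in cKO 5, and Ifnar1 and Socs1 were highest in control 1.

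Of 9 co-stimulation and checkpoint ligand genes, 8 had a row and 7 were tested, with 0 called, 1 positive and 6 negative (median −0.49). On the TMM scale 2 of the 7 were lower in cKO without overlap, against 7.64% of all genes, and 0 higher, against 8.33%. These were Cd274 and Tnfsf9, named after their values were seen, and both overlapped when libraries were scaled on the microglial markers. On CPM without the TMM factors Tnfsf9 (5.265, 4.816, 5.199 and 4.61) overlapped too. Cd274 stayed lower without overlap there, against 6.57% of all genes. Cd86, the co-stimulatory ligand gene read by CD28, had 516, 784, 220 and 673 CPM, and Icam1, an adhesion ligand gene, had 135.2, 152.9, 71.9 and 137 CPM. Cd40 was highest in control 1 (60.2 CPM) and cKO 2 (39.9 CPM) and low in control 6 (9.17 CPM) and cKO 5 (3.06 CPM). Those are the libraries with high and low endothelial markers, such as Cldn5 at 1535, 279, 1147 and 146 CPM; the part of these cells in the Cd40 values was not tested.

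Macrophages of the brain borders, which carry more class II than microglia, had 11 markers, of which 10 were tested (9 positive, 1 negative, median 0.46, 0 called). They summed to 951, 1213, 406 and 1835 CPM. Stab1 and Mrc1 led them, with Mrc1 at 165.5, 204, 85.9 and 370 CPM, and Cd163 had no reads in control 6. The 5 members that were highest in cKO 5 share that feature with all 10 tested markers of this list, as against 25.8% of all genes. So did 8 of the 11 tested markers of monocytes and neutrophils, which summed to 129, 125.9, 85.3 and 192 CPM. The feature was not particular to those cell lists. It was shown by 11 of 17 peptide supply and loading genes and 6 of 9 tested further class I related genes. In the class II loading list it was shown by 4 of 10 genes, in the dendritic list by 4 of 8 and in the microglial list by 3 of 16. What part any of these cell types had in the member values was not tested. As a deviation from the mean over all libraries, the median of the 9 members was 0.00, 0.47, −1.23 and 0.52 (log2). The microglial list had 0.03, 0.83, −1.48 and 0.64, the border macrophage list −0.14, 0.21, −1.11 and 1.17, and the endothelial list 1.48, −0.81, 0.95 and −1.51.

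**Figure D5:**
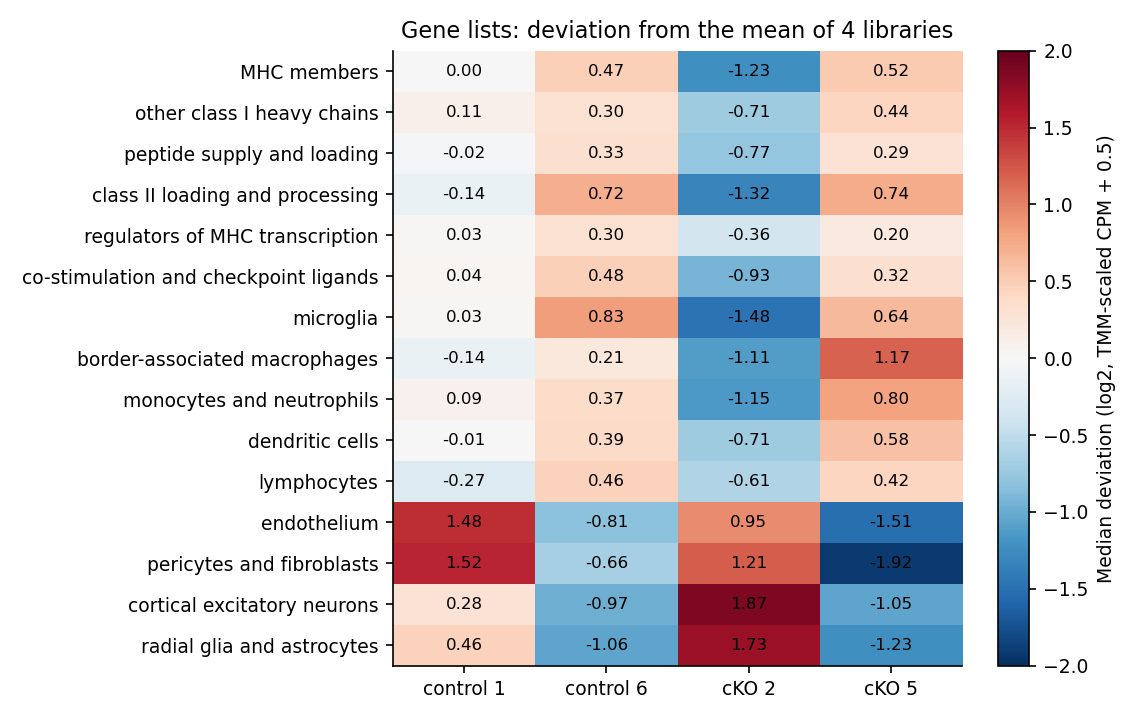
Median deviation of each gene list from the mean of the 4 libraries (colour and number, log2 of TMM-scaled CPM + 0.5), with libraries in columns. The MHC members (0.00, 0.47, −1.23 and 0.52) share the sign pattern of the microglial and other immune lists in control 6, cKO 2 and cKO 5, and the vessel and neural lists have the opposite sign in those libraries.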

How the data were processed

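RNA sequencing of 4 mouse libraries (2 control, 2 cKO) was analysed. Per the submitters' processing notes, Bowtie2 2.2.3, TopHat2 2.0.12 and HTSeq 0.6.0 were used with the mm9 build; the sources used here give no roles, settings or strandedness, so overlapping and antisense genes cannot be told apart. The deposited gene positions matched GENCODE M21 (GRCm38; 90.3% identical, 99.2% with starts within 5000 bp of 21922 genes) and are given as GRCm38. The authors deposited raw counts per Ensembl gene and CPM, in which a count of 0 became 0.5 reads, in 4 pairwise tables, which leave out most genes with few reads. The deposited log2 fold changes and the deposited p-values come from a test not given in the sources used here. Counts were identical between tables.

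Counts were joined (18723 genes with a count in every library; totals 17233115 to 19305078 reads) and tested with edgeR 4.0.16 (R 4.3.3; TMM, filterByExpr with a minimum of 10, quasi-likelihood, two-sided, Benjamini-Hochberg at 0.05, 2 residual degrees of freedom). CPM printed was not divided by TMM factors. DESeq2 1.42.0, limma-voom (limma 3.58.1), other scalings, no filter and leaving out each library were the alternatives. The test was also run on simulated data, whose outcome is not given here. In the fit to all 4 libraries the common dispersion was 0.425 (biological coefficient of variation 0.652). A result of 0 genes called is therefore not evidence of no change. Intervals are 95% exact binomial (Clopper-Pearson); reads are not independent molecules, so these cover counting error only. Named were all members, list genes with a mean of at least 20 CPM (examples printed), certain regulators and class II partners whatever their level, and the abundant genes of the marker lists. The members and lists were chosen with earlier results of these data known.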

Additional observations from a re-analysis of the deposited data

How the results depend on the processing

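No gene passed the threshold in any of the alternatives, and no paired analysis was possible because the libraries of the genotypes share no replicate number. Scaling on the microglial markers turned 7 members positive in edgeR: B2m 0.25, H2-K1 0.35, H2-D1 0.54, Tap1 0.086, Tapbp 0.21, Cd74 0.12 and H2-Ab1 0.19 (log2), with a median over all genes of 1.13. Without Cx3cr1 in the marker list, chosen after seeing the data, these were 0.19, 0.29, 0.47, 0.018, 0.14, 0.054 and 0.13, and without Cx3cr1 and C1qc 0.24, 0.34, 0.52, 0.078, 0.19, 0.10 and 0.18. With each of the 3 marker scalings 0 members lay lower without overlap and 2 lay higher. Leaving out 1 library gave log2 fold changes from −1.68 to 0.50 for B2m, −1.55 to 0.63 for H2-K1, −0.93 to 0.25 for H2-D1, −1.99 to 0.54 for Tap1, −1.51 to 0.20 for Tapbp, −1.82 to 0.24 for Cd74, −2.45 to −0.17 for H2-Aa, −1.44 to 0.21 for H2-Ab1 and −1.65 to −0.39 for H2-Eb1. In those fits the lone library of a genotype is assumed to vary like the others. The direction held for every member with DESeq2, limma-voom, RLE, upper quartile, library totals and no filter. Depth limits H2-Eb1 and H2-Aa, which had as few as 14 and 11 reads.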
